A study of Mus musculus with 32 samples.

Results

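Genes of the mast cell granule, and one of its IgE receptor, were followed across mouse sympathetic ganglia and neuroblastoma sphere cultures. The listed set has 7 genes: the chymases Mcpt4 and Cma1, carboxypeptidase Cpa3, the tryptases Tpsb2 and Tpsab1, histidine decarboxylase Hdc, and Ms4a2, the beta chain of the high-affinity IgE receptor. Members were taken by symbol, through the RefSeq accession of each array probe, and 6 of the 7 had a probe, with 7 probes in all among 27235 named probes for 20660 symbols. No probe was matched to Tpsab1. The genes were chosen with their levels in these samples known, so their differences between groups are given as a description, with standard errors and no test.

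RNA was measured on 32 one-colour microarrays. Ganglia were superior mesenteric ganglia (SMG), which hold abdominal sympathetic neurons, of 8 wild-type and 8 TH-MYCN hemizygote mice, all 3 weeks old and of the 129+Ter/SvJcl background. TH-MYCN mice carry a human MYCN transgene driven by the tyrosine hydroxylase promoter, which acts in catecholamine-making cells, and they develop neuroblastoma. The spheres, clusters of cells in culture, were all grown from TH-MYCN hemizygotes of the same age and background: 8 primary cultures after 8 days, and 4 cultures after 5 passages, each read on 2 arrays that were averaged. There was no sphere culture of wild-type cells. Each sample is described by the series as a biological replicate, and p-values measure the spread between these samples.

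Mast cells are tissue-resident immune cells that store proteases, histamine and heparin-like proteoglycan in granules and release them when antigen cross-links IgE on the high-affinity receptor. In connective tissue the granules hold chymases, tryptases and carboxypeptidase A3, and histamine is made there from histidine by the product of Hdc. Kit, the receptor for stem cell factor, and the transcription factors Gata2 and Mitf are needed for mast cell development, and mast cells are found along nerves and in the capsule of ganglia.

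Levels are log2 of the processed signal minus the 75th percentile of the array, so a level of 0 is the brightness of the probe at that percentile and each unit is a factor of 2. The 75th percentile of signal was 523 to 1358 on ganglion arrays and 323 to 564 on sphere arrays. Agilent's flag called 59.1% to 65.7% of spots well above background on the ganglion arrays, 57% to 59.7% for primary spheres and 49% to 53.9% for passaged spheres. The dimmest probe with that flag lay at -6.15 to -5.22 on the arrays of ganglia and primary spheres and at -5.12 to -4.28 for passaged spheres, and levels below these have no order. Precision is limited by how many arrays each group has. Wild-type and TH-MYCN ganglia shared slides 1 and 2, with 4 of each on either slide, and the spheres were on slides 3 and 4.

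The genes differ in the sequence just before their transcription starts. RefSeq promoters (GRCm38.p6, the reference strain and not that of these mice) were held for 5 of the 7 genes, not for Tpsb2 and Tpsab1. The 150 bases before the start are shown for the 3 proteases whose levels moved most closely together from ganglion to ganglion and for Hdc, which moved less closely with them. Capitals mark matches to the GATA-type letters AGATAA or TGATAA, searched on both strands, and to the TATA-type letters TATAAA, searched on the gene's strand.
Mcpt4 (chr14:56062311-56062460, minus strand): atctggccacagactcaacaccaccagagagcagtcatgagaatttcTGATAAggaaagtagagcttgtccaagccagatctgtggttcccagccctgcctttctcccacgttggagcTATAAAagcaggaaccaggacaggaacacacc
Cma1 (chr14:55944676-55944825, minus strand): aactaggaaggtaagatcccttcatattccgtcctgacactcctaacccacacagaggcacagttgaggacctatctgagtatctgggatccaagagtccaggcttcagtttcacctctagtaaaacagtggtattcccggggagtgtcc
Cpa3 (chr3:20242182-20242331, minus strand): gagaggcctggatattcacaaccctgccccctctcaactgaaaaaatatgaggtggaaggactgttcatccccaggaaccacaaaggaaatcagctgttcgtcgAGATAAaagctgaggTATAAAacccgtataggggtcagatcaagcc
Hdc (chr2:126618679-126618828, minus strand): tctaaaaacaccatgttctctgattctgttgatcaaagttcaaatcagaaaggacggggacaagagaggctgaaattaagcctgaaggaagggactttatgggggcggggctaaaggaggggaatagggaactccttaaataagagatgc

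Over the 250 bases before the start, the Mcpt4 promoter held a GATA-type match at -103 to -98 and a TATA-type match at -32 to -27. Cpa3 held them at -46 to -41 and -31 to -26. The Ms4a2 promoter, not shown, held 3 GATA-type matches, at -224 to -219, -37 to -32 and -11 to -6, and no TATA-type match. Cma1 and Hdc held none of these letters in the window. Of 27025 promoters of the same length, 17.0% held a GATA-type match and 8.12% a TATA-type match. E-box letters of the kind bound by MITF (CACGTG or CATGTG, both strands) are in 17.6% of promoters and in none of these 5. The matches are a description of letters.

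The chymases come first. Mcpt4 encodes a serine protease of connective tissue mast cells. Its level in the wild-type SMG was lowest at -0.38, had a median of 0.68 and was highest at 1.78, and in the TH-MYCN SMG it ran from -2.15 through a median of -1.89 to -1. The groups did not overlap, and the probe was well above background in all 16 ganglia. TH-MYCN minus wild-type was -2.45 (SE 0.26), which is 5.46-fold lower, and it was -2.68 on slide 1 and -2.22 on slide 2. In bulk RNA fewer cells of a type and less RNA per cell cannot be told apart. In primary spheres the signal lay between -7.48 and -6.16 and was well above background in 0 of 8 cultures, at least 13-fold lower than in the TH-MYCN SMG. In the 4 passaged cultures it was -6.67, -5.6, -6.18 and -6.02, again not well above background in any of them.

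Cma1 encodes the other chymase of the set. Its level ran from -3.9 through -2.67 to -1.57 in the wild-type SMG and from -6.13 through -4.96 to -4.33 in the TH-MYCN SMG, without overlap. The difference was -2.36 (SE 0.29), or 5.12-fold lower, with the probe well above background in 8 wild-type and 5 TH-MYCN ganglia. On slides 1 and 2 it was -2.85 and -1.87. In the spheres it was not well above background in any of the 12 cultures. Against the lowest signal well above background, primary spheres were 1.33-fold lower than the TH-MYCN SMG, whose level was itself near background. Cma1 was not well above background in TH-MYCN replicate 2 at -4.84, so 1.33 is not a secure bound.

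Cpa3, the carboxypeptidase that trims peptides after the chymases have cut them, followed the same order. Wild-type levels ran from -2.61 through -1.42 to -0.37 and TH-MYCN levels from -4.37 through -3.68 to -3.07, all 16 well above background and with no overlap. The difference was -2.32 (SE 0.28), or 4.99-fold lower, and within slides 1 and 2 it was -2.57 and -2.06. Sphere signals lay between -7.71 and -6.37 and were well above background in 0 of 12 cultures, with primary spheres at least 3.32-fold lower than the TH-MYCN SMG.

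Tpsb2, a tryptase that forms heparin-bound tetramers, had 2 probes that were alike in direction in the ganglia and unlike in the spheres. With A_55_P2127243, wild-type levels ran from -1.67 through -1.03 to -0.03 and TH-MYCN levels from -2.8 through -2.38 to -1.87, with no overlap and a difference of -1.44 (SE 0.2), or 2.71-fold lower. With A_55_P2089143 they ran from -2.94 through -2.02 to -1.25 and from -4.48 through -4.19 to -2.54, with a difference of -1.98 (SE 0.27), or 3.96-fold lower. That second pair of groups overlapped through TH-MYCN replicate 4, at -2.54, which lay above wild-type replicate 7. In primary spheres A_55_P2127243 stayed well above background in 8 of 8 cultures, between -2.62 and -1.45, a difference of 0.17 (SE 0.17) from the TH-MYCN SMG, and its 4 passaged values were -1.83, -2.51, -1.54 and -2.28. A_55_P2089143 was well above background in 0 of those 12 cultures, with primary spheres at least 2.76-fold lower than the TH-MYCN SMG. The sphere level of Tpsb2 is therefore not settled by this array, and since Tpsab1 is a close relative, signal assigned to Tpsb2 may include its RNA.

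Hdc makes histamine. Its level ran from -2.57 through -1.65 to -1.18 in the wild-type SMG and from -3.33 through -2.73 to -2.28 in the TH-MYCN SMG, well above background in all 16. Wild-type replicate 7 fell inside the TH-MYCN range, so the groups overlapped. The difference was -1.05 (SE 0.19), or 2.07-fold lower, the smallest among the detected members, and it was -1.51 on slide 1 and -0.58 on slide 2. In primary spheres 1 of 8 cultures was well above background, with signals between -6.66 and -4.68 and a difference of -2.58 (SE 0.23) from the TH-MYCN SMG, taken mostly against signals not well above background. The passaged cultures, at -5.32, -6.03, -4.41 and -5.68, were not well above background.

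The IgE receptor chain was near the limit of the array. Ms4a2 was well above background in 1 of 28 samples, wild-type replicate 2 at -5.19, and the other 7 wild-type ganglia lay between -8.15 and -7.27. It did not pass the filter of at least 4 samples well above background in any comparison. Fcer1a, the IgE-binding chain of the same receptor, was well above background in 2 wild-type ganglia, 0 TH-MYCN ganglia, 1 primary culture and 0 passaged cultures. Mrgprb2, a mast cell receptor for basic secretagogues, was seen in 2 wild-type ganglia and in no other sample. So Mcpt4, Cma1, Cpa3, Tpsb2 and Hdc were measured in every wild-type ganglion, while Ms4a2 and Fcer1a were at or under the detection limit in most. The receptor's gamma chain gene Fcer1g, which other immune cells also make, was well above background in all 16 ganglia.

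**Figure D1:**
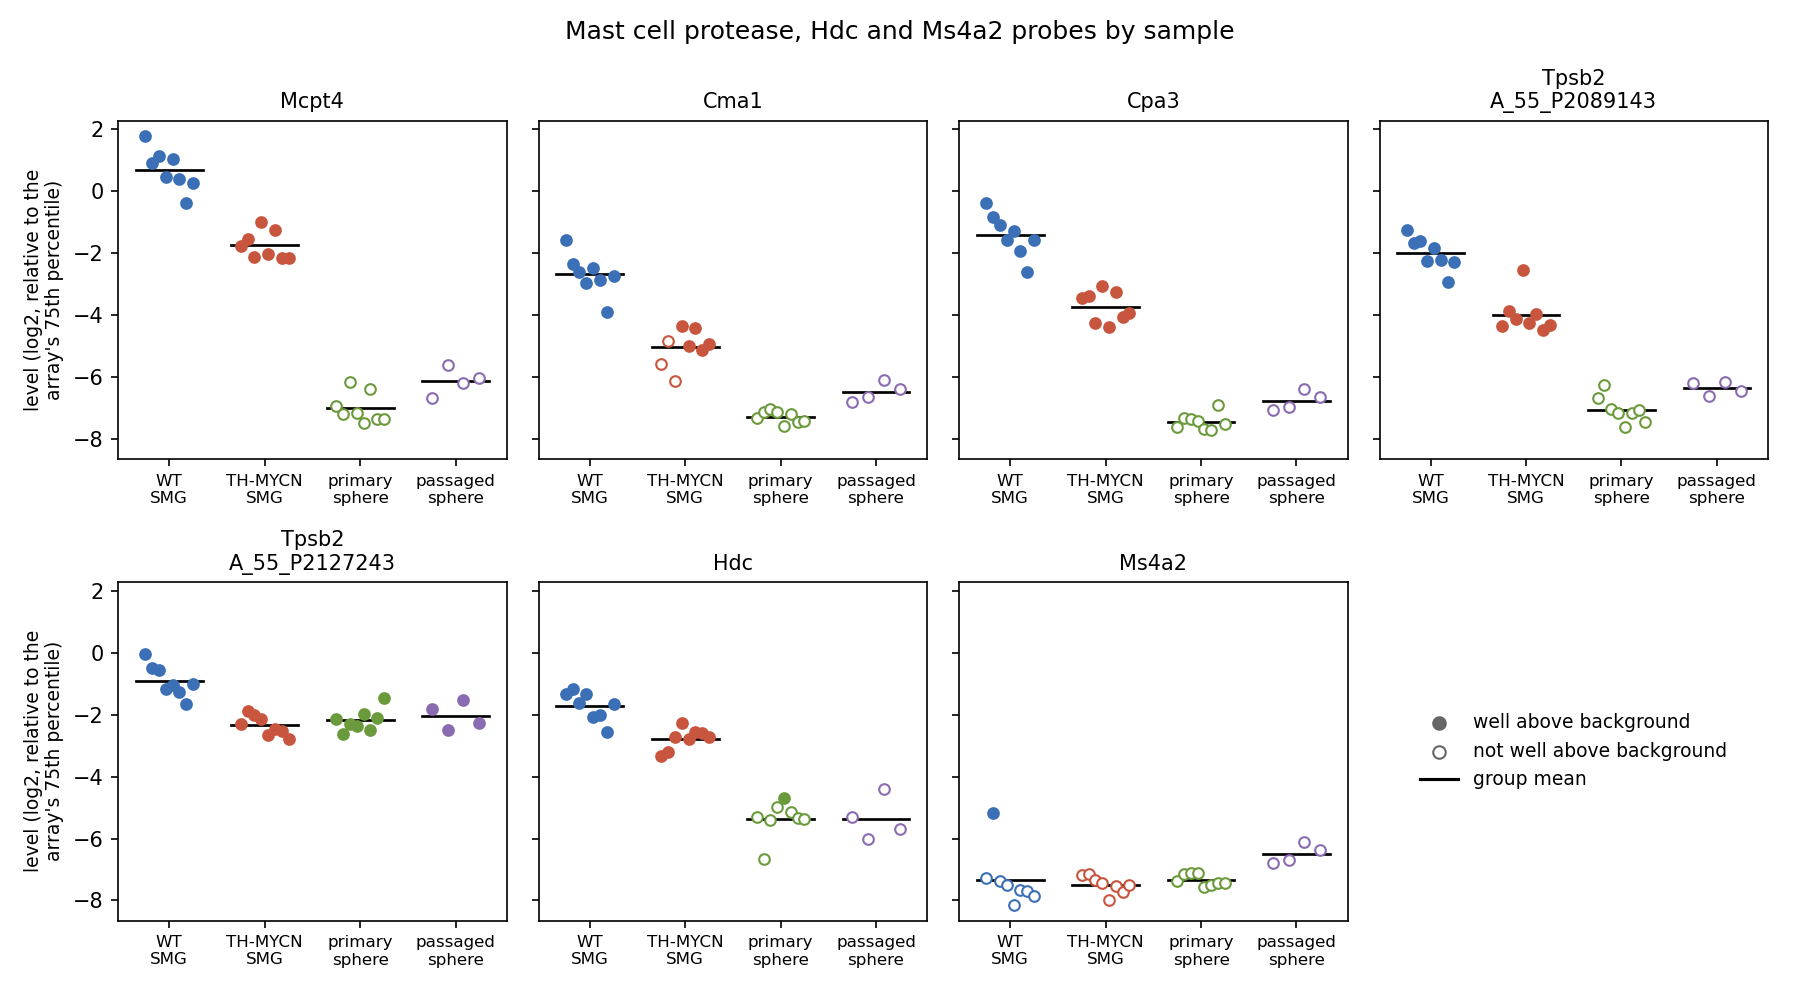
Levels of the 7 probes in each sample (vertical axis, log2 relative to the array's 75th percentile) in wild-type SMG, TH-MYCN SMG, primary spheres and passaged spheres. Filled points are well above background, open points are not, and bars are group means; Mcpt4 runs from -0.38 to 1.78 in the wild-type SMG and from -2.15 to -1 in the TH-MYCN SMG, and Tpsb2 probe A_55_P2127243 alone is filled in all spheres, with 1 further filled sphere for Hdc.

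By level, the wild-type SMG was highest and the TH-MYCN SMG next for Mcpt4, Cma1, Cpa3 and Hdc, with both kinds of sphere at or near background and not ordered between themselves. For Tpsb2 probe A_55_P2127243 the wild-type SMG was highest, and the TH-MYCN SMG, primary spheres and passaged spheres overlapped. Of the 5 members that passed the filter in TH-MYCN minus wild-type SMG, each by its brightest probe, 4 did not overlap and were lower, where 12.4% of all 15845 tested genes did the same. Their median difference was -2.32, where the median of all tested genes was -0.22. None was higher without overlap, beside 9.17% of all tested genes. Because the members were chosen on this contrast, nothing is read from these counts.

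Limma with Benjamini-Hochberg adjustment over all tested genes called 65.7% of genes in TH-MYCN minus wild-type SMG at an adjusted p under 0.05, 43.8% lower and 21.9% higher. The higher calls were 33.3% of the calls, and 55.4% of them once the median gene, at -0.22, was set to no difference. Against this background the 39 other mast cell genes, of which 29 passed the filter, were mixed: 14 fell, 6 rose and 9 were not called, with a median of -0.23, close to that of all genes. With the median gene set to no difference 13 fell and 8 rose. On slide 1 alone 12 fell and 4 rose, and on slide 2 alone 13 fell and 8 rose.

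Of 14 listed granule and storage genes 9 passed the filter, of which 5 fell and 1 rose, with a median of -0.82. The 5 of 9 is not far above the 43.8% of all tested genes called lower. Mcpt-ps1, a chymase pseudogene that is transcribed, fell by 2.93 (SE 0.49, limma adjusted p = 1e-04) and was well above background in 8 wild-type and 6 TH-MYCN ganglia. Cma2, a further chymase, ran from -1.18 to 0.78 in the wild-type SMG and from -3.1 to -1.62 in the TH-MYCN SMG, and fell by 1.87 (SE 0.25, limma adjusted p = 1.31e-05). Tpsg1, a membrane-anchored tryptase, fell by 1.77 (SE 0.47, limma adjusted p = 0.00364), with 7 wild-type and 2 TH-MYCN ganglia well above background, so the size of its fall is taken mostly against background. Serpinb1a, an inhibitor of neutrophil-type serine proteases, fell by 0.96 (SE 0.16), and Slc18a2, the vesicular monoamine transporter that sympathetic neurons also use, fell by 0.82 (SE 0.13). Ctsc, the dipeptidase that activates granule proteases and is also made by macrophages, rose by 0.66 (SE 0.11, limma adjusted p = 0.000105), though with all 4 groups in one fit its adjusted p was 0.357. Srgn, the granule proteoglycan core (-0.2, SE 0.15), Ndst2 and Ctsg were not called.

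All 6 listed enzymes of lipid mediators and serotonin passed the filter, 5 fell and 1 rose, beside the 43.8% and 21.9% of all tested genes, with a median of -1.05. Alox5 (-1.38, SE 0.27) and its partner Alox5ap (-0.85, SE 0.15) begin leukotriene synthesis, Ltc4s (-1.19, SE 0.4) makes leukotriene C4, Ptgs1 (-0.91, SE 0.18) makes prostaglandin H2, and Tph1 (-1.33, SE 0.38) begins serotonin synthesis. Tph1 was well above background in 8 wild-type and 3 TH-MYCN ganglia. On slide 1 alone Tph1 (-1.15, limma adjusted p = 0.15) and Ltc4s (-1.63, limma adjusted p = 0.0671) were not called. Hpgds, the haematopoietic prostaglandin D synthase, rose by 1.86 (SE 0.31, limma adjusted p = 9.32e-05), from 1 of 8 ganglia well above background to 8 of 8. That call ended with the normexp background (0.08, adjusted p = 0.741).

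Receptors and signalling genes split. Of 10 that passed the filter 2 fell and 4 rose, beside 43.8% and 21.9% of all tested genes, with a median of 0.29. Il1rl1, the interleukin-33 receptor, fell by 1.12 (SE 0.15, limma adjusted p = 9.61e-06), from -2.41 to -1.45 in the wild-type SMG to -3.33 to -2.78 in the TH-MYCN SMG without overlap. Its other 2 probes were not well above background in any sample. Adora3 fell by 0.39 (SE 0.17, limma adjusted p = 0.0463), and 11 of the 16 fits that each left out one ganglion did not call it (adjusted p up to 0.094). Its difference was -0.03 on slide 2. Fcer1g, the gamma chain shared by several Fc receptors, rose by 0.97 (SE 0.19), Lat2, an adaptor, by 0.77 (SE 0.17), Lyn, a kinase, by 0.7 (SE 0.15) and Syk, a kinase, by 0.44 (SE 0.18, limma adjusted p = 0.0456). Syk was not called in 11 of those 16 fits and was 0.08 on slide 1 alone, and with the normexp background Lyn turned to -0.06 and Lat2 was not called (0.14, adjusted p = 0.472). Kit was not called: it ran from 0.66 to 1.09 in the wild-type SMG and from 0.71 to 0.89 in the TH-MYCN SMG, a difference of -0.08 (SE 0.07, limma adjusted p = 0.339), or 0.14 with the median gene set to no difference.

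Among transcription factors 4 of 5 passed the filter and 2 fell, near the 43.8% of all tested genes called lower. Mitf fell by 0.87 (SE 0.17) and Gata2, which sympathetic neurons also make, by 0.64 (SE 0.17, limma adjusted p = 0.00425), though not on slide 1 alone (-0.34, adjusted p = 0.205). Tal1 (-0.17, SE 0.13) and Stat5b (-0.23, SE 0.11) were not called, though a slide block called Stat5b lower (limma adjusted p = 0.0307), and Gata1 was well above background in 1 ganglion.

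**Figure D2:**
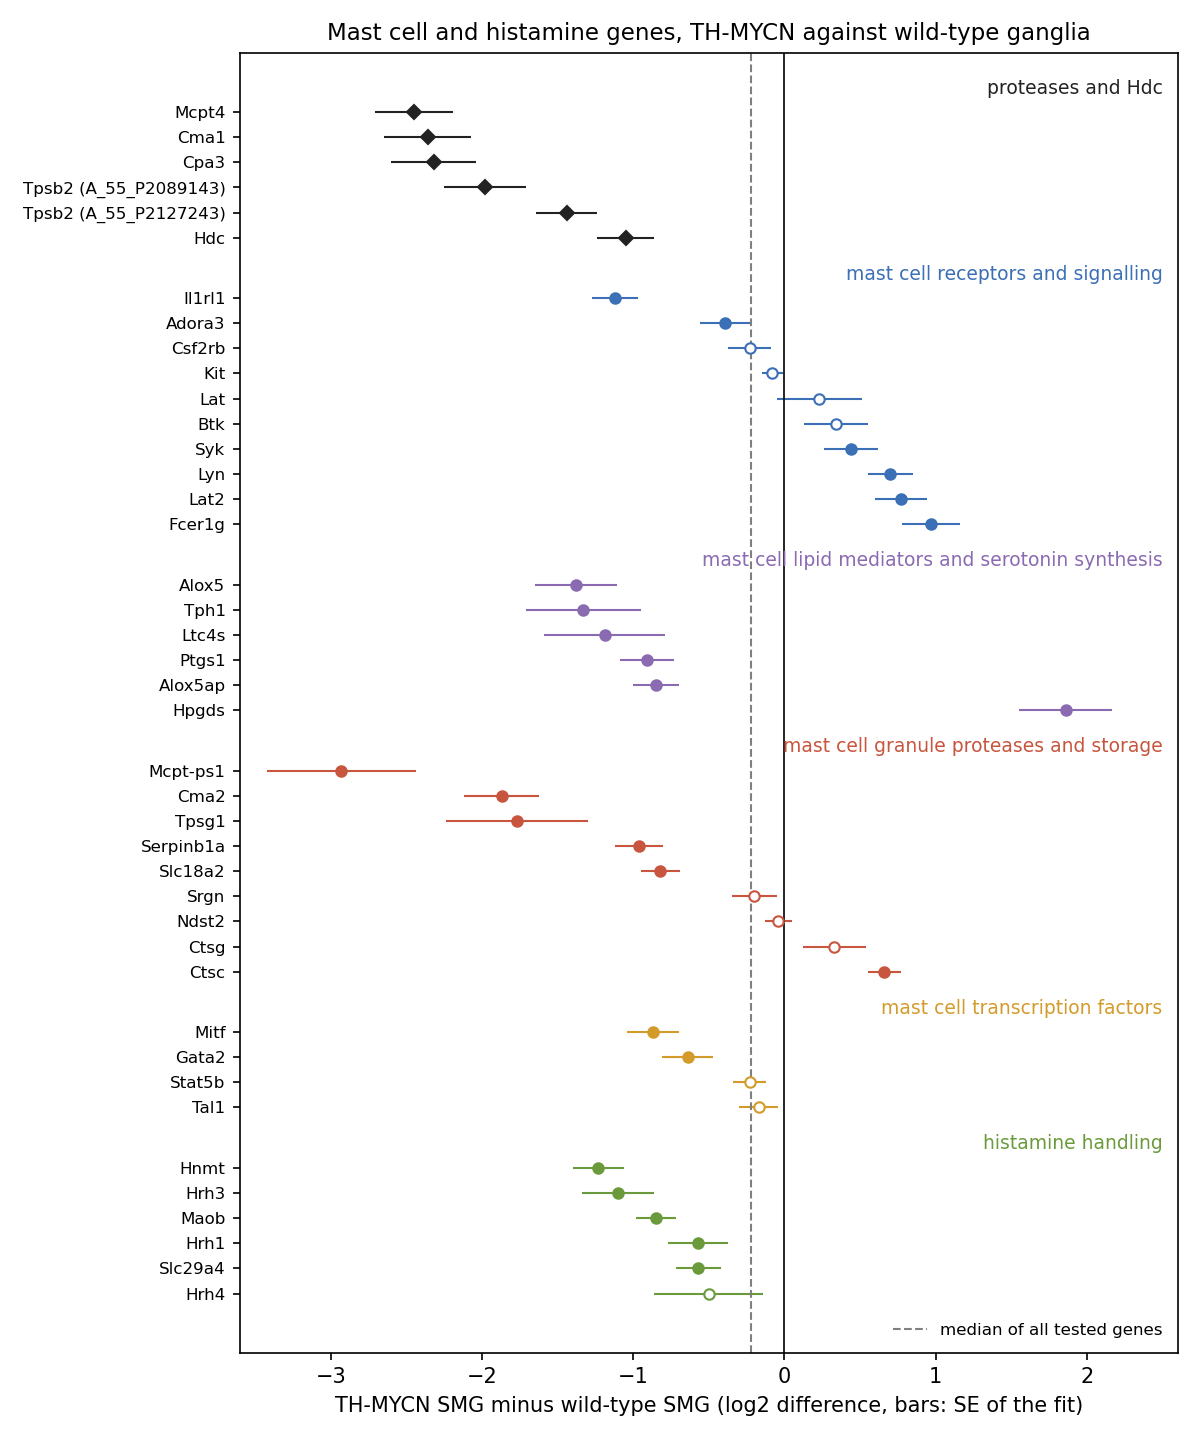
Differences between ganglia, TH-MYCN minus wild-type (horizontal axis, log2; bars are the standard errors of the fit) for the protease and Hdc probes (diamonds, not tested) and for the other mast cell and histamine genes that passed the filter (circles, filled where limma's adjusted p was under 0.05). The dashed line is the median of all tested genes at -0.22; Mcpt4, Cma1 and Cpa3 lie at -2.45, -2.36 and -2.32, while Fcer1g, Lat2, Lyn, Syk, Ctsc and Hpgds lie above 0.

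Further genes act on histamine after it is made. Of 9 listed 8 had a probe and 6 passed the filter; 5 fell, 0 rose (0 also at an unadjusted limma p under 0.05) and Hrh4 was not called, with a median of -0.71, beside 43.8% of all tested genes called lower. A slide block (limma adjusted p = 0.00891) and the normexp background (adjusted p = 0.0325) each called Hrh4 lower (-0.5, SE 0.36, without them). Hnmt, which inactivates histamine by methylation, ran from 0.37 to 1.46 in the wild-type SMG and from -1.06 to 0.17 in the TH-MYCN SMG and fell by 1.23 (SE 0.17, limma adjusted p = 1.54e-05). Its second probe gave -1.19 (SE 0.19). Maob, an oxidase of amines and of methylhistamine, fell by 0.85 (SE 0.13), and Slc29a4, a monoamine transporter, by 0.57 (SE 0.15). The receptors Hrh3, which is found on nerve endings, and Hrh1 fell by 1.1 (SE 0.24) and 0.57 (SE 0.2). On slide 1 alone Slc29a4 was not called (-0.26, adjusted p = 0.117). With the median gene set to no difference, 3 of the 5 kept an adjusted p under 0.05, and Slc29a4 (-0.35, adjusted p = 0.0603) and Hrh1 (-0.35, adjusted p = 0.138) did not. Aoc1, the diamine oxidase, was not well above background in any ganglion.

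The other cell types of the ganglion moved in these samples too, and their part in the differences was not tested. Their counts stand beside 43.8% of all tested genes called lower and 21.9% called higher. Of 8 macrophage markers measured 6 rose and 1 fell, and their mean level went from 0.77 to 1.42 in the wild-type SMG to 1.36 to 2.08 in the TH-MYCN SMG. Of 7 fibroblast markers 6 fell (4.21 to 4.88 against 3.7 to 4.02), and all 7 Schwann and satellite glia markers (2.05 to 2.46 against 0.65 to 1.76) and all 7 sympathetic neuron markers (6.04 to 6.33 against 4.73 to 5.68) fell. Of 6 endothelium markers 5 fell (-1.44 to -0.71 against -2.14 to -1.42), and all 6 cell division markers rose (-5.27 to -2.33 against 1.26 to 3.42). Of 5 lymphocyte markers measured 5 fell, and of 4 neutrophil markers 2 fell. Basophils share Cpa3, Hdc and Ms4a2 with mast cells; their own genes Mcpt8, Prss34 and Cd200r3 were not well above background in any ganglion, and the integrin Itga2, which other cells also carry, fell by 1.23 (SE 0.23).

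Mcpt4 and Cma1 belong to one cluster of related proteases on chromosome 14, and the members of that cluster were not detected alike. In RefSeq's order it runs Cma1, Mcpt-ps1, Cma2, the pseudogene Gm5801, Mcpt1, Mcpt2, Mcpt9, Mcpt4, Mcpt8, Ctsg and then granzymes. Cma1, Mcpt-ps1, Cma2, Gm5801 and Mcpt4 were well above background in 8 of 8 wild-type ganglia. Mcpt1 and Mcpt2, which mucosal mast cells make, and Mcpt9 and Mcpt8 were well above background in 0 of 16 ganglia. Ctsg was detected in 4 wild-type and 4 TH-MYCN ganglia. In the primary spheres Cma2 and Gm5801 were still detected in 8 of 8 cultures, while Cma1, Mcpt-ps1 and Mcpt4 were detected in none; Gm5801 had means of 0.26 and 0.34 in wild-type and TH-MYCN SMG. These genes are near-identical in parts, so signal can be shared between relatives.

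**Figure D3:**
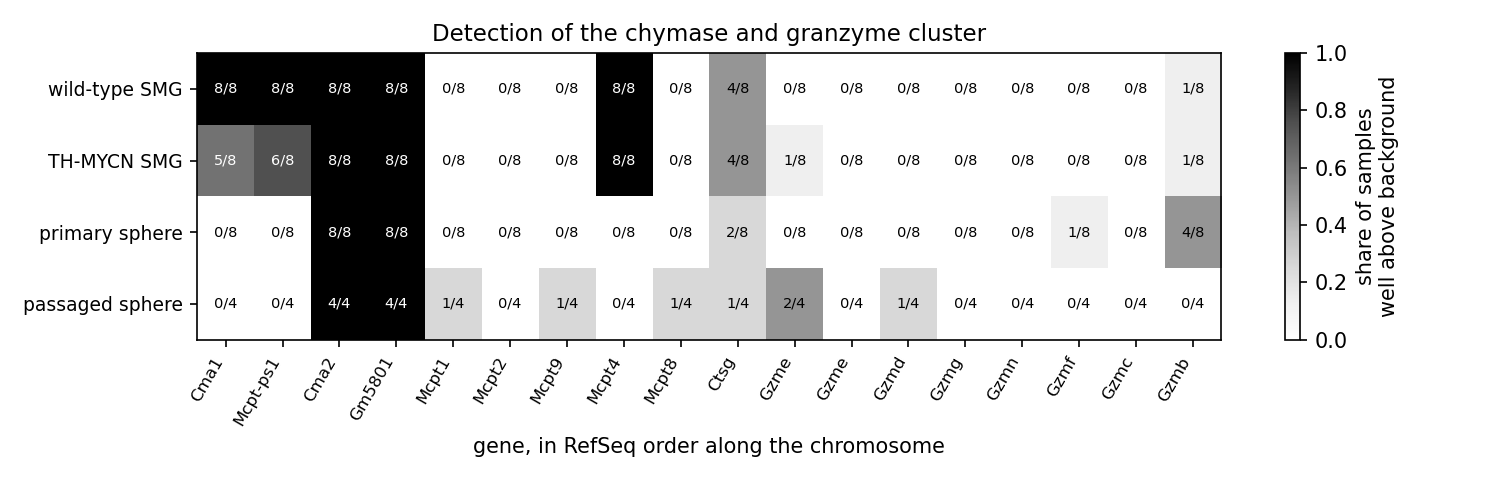
Number of samples with the probe well above background (figures in the cells, shade is the share) for the genes of the chymase and granzyme cluster in their RefSeq order, by group. Cma1, Mcpt-ps1 and Mcpt4 are detected in 8, 8 and 8 wild-type ganglia and in 0 spheres, Cma2 and Gm5801 in every sample, and Mcpt1, Mcpt2, Mcpt8 and Mcpt9 in 0 ganglia.

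Mcpt4, Cma1 and Cpa3 varied together from ganglion to ganglion, and Hdc and the brightest Tpsb2 probe less so. Wild-type replicate 7 was lowest of the wild-type ganglia for Mcpt4, Cma1, Cpa3, both Tpsb2 probes and Hdc, and wild-type replicate 1 was highest for all of these but Hdc. After each group's mean on each slide was subtracted, Mcpt4 and Cma1 correlated at r = 0.91 over the 16 ganglia, Mcpt4 and Cpa3 at 0.9, and Cma1 and Cpa3 at 0.91. Tpsb2, by probe A_55_P2127243, followed these 3 at 0.66 to 0.68 and Hdc at 0.36 to 0.47. The other Tpsb2 probe, A_55_P2089143, was not put through these relations, so the Tpsb2 values hold for the first probe alone. The ganglia of a slide share their array hybridisation, and these values are a description.

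Within the 8 wild-type ganglia the relations with Mcpt4 were tested by exact permutation, two-sided, in a family of 22 relations over both groups. Tpsb2 was taken by probe A_55_P2127243 alone. Mcpt4 went with Cma1 (Pearson r = 0.943, exact permutation p = 0.00206, adjusted 0.0151; Spearman rho = 0.81, p = 0.0218, adjusted 0.12), Cpa3 (r = 0.946, exact p = 0.00154, adjusted 0.0151; rho = 0.857, p = 0.0107, adjusted 0.113) and Tpsb2 (r = 0.91, exact p = 0.00375, adjusted 0.0186; rho = 0.762, p = 0.0368, adjusted 0.135). Hdc did not pass (r = 0.619, exact p = 0.104, adjusted 0.253; rho = 0.452, p = 0.267, adjusted 0.535). Centred within slides, r was 0.927 for Cma1, 0.917 for Cpa3, 0.86 for Tpsb2 and 0.281 for Hdc. Without the 2 ganglia farthest from the median Mcpt4 level r was 0.745, 0.776 and 0.66 for the 3 proteases. With exact p of 0.117, 0.0861 and 0.21, none passed over the 6 that remained, where the range of Mcpt4 is also narrower.

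Markers of other cells also went with Mcpt4 in the wild-type SMG. The fibroblast marker mean gave r = 0.946 (exact permutation p = 0.000893, adjusted 0.0151; rho = 0.881, p = 0.00724, adjusted 0.113), 0.916 centred within slides and 0.852 (exact p = 0.05) without the 2 ganglia. The cell division marker mean gave r = 0.861 (exact p = 0.0062, adjusted 0.0227; rho = 0.833, p = 0.0154, adjusted 0.113), 0.815 within slides and 0.436 (exact p = 0.335) without the 2. That cell division mean was low in the wild-type SMG, from -5.27 to -2.33, and its gene Bub1 was well above background in 4 of 8 of them. Wild-type replicate 1, highest for Mcpt4, had the lowest 75th percentile of signal of the ganglion arrays (523). The part of either in these relations was not tested. The macrophage (r = 0.31, rho = 0.119), endothelium (r = 0.675, rho = 0.476), Schwann and satellite glia (r = 0.271, rho = 0.071) and sympathetic neuron (r = 0.128, rho = 0.167) means did not pass, with adjusted exact p of 0.179 to 0.754 for r.

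In the 8 TH-MYCN ganglia 1 of the 11 relations passed. With values centred within slides 2 were under the threshold, by a permutation that was not kept within slides. Cpa3 gave r = 0.899 (exact permutation p = 0.00422, adjusted 0.0186; rho = 0.762, p = 0.0368, adjusted 0.135), 0.885 within slides and 0.828 (exact p = 0.0639) without the 2 ganglia farthest from the median, a similar r that no longer passed over 6 ganglia. Cma1 gave r = 0.691 (exact p = 0.056, adjusted 0.176) and rho = 0.643 (adjusted 0.302). Centred within slides its r was 0.9 (permutation p = 0.00109, adjusted 0.0227), under the threshold. Those orders were drawn over both slides and not within each, so this p is not exact and no call is taken from it. Without the 2 ganglia the r of Cma1 was 0.226 (exact p = 0.676). Cma1 was well above background in 5 of these 8 ganglia. Tpsb2, by probe A_55_P2127243, gave r = 0.418 (exact p = 0.297, adjusted 0.544) and rho = 0.548 (adjusted 0.47). Its r was 0.263 within slides and 0.642 (exact p = 0.164) without the 2 ganglia. The relation of its other probe with Mcpt4 was not tested. Fibroblast markers gave 0.519 (exact p = 0.187, adjusted 0.412; rho = 0.429, adjusted 0.549) and macrophage markers -0.371 (exact p = 0.368, adjusted 0.623; rho = -0.048, adjusted 0.935). Whether a relation differed between the groups was not tested, and 4 ganglia a group on a slide are too few for a relation within one slide.

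**Figure D4:**
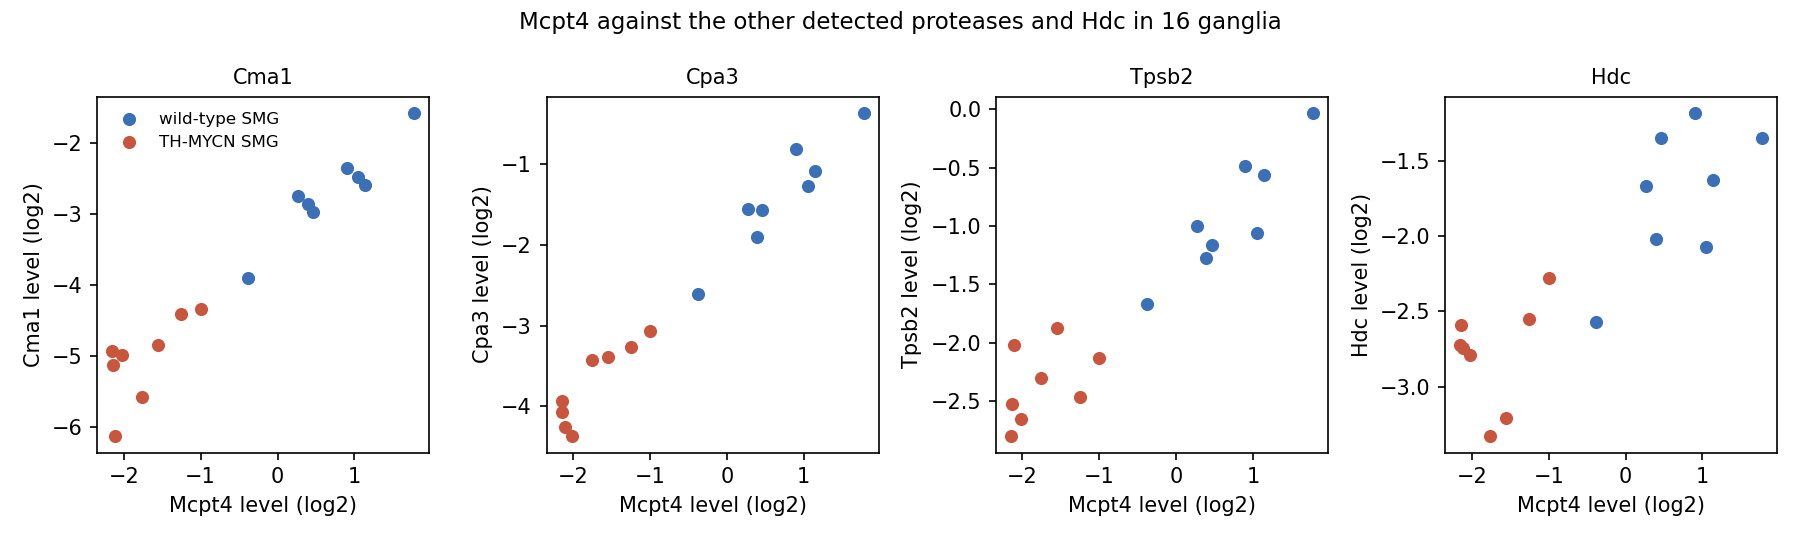
Level of Cma1, Cpa3, Tpsb2 (probe A_55_P2127243) and Hdc (vertical axes, log2 relative to the array's 75th percentile) against that of Mcpt4 (horizontal axes, same unit) in 8 wild-type and 8 TH-MYCN ganglia, one point a ganglion. Within the wild-type SMG r is 0.943, 0.946, 0.91 and 0.619 in the 4 panels, and the points of wild-type replicates 1 and 7 are the ends of the wild-type range of Mcpt4.

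Other genes followed the same pattern. Of 14202 genes ranked by r with the mean of the 5 detected members over the 16 ganglia, group and slide means removed, the median r was 0.03 and the 99th percentile 0.64. A member was compared with the mean of the others. The 10 highest were Cma1 (0.91), Slc6a13, a GABA transporter (0.88), the complement gene C2 (0.88), Cpa3 (0.87), Mcpt4 (0.87), Il1rl1 (0.84), the small GTPase gene Arl4d (0.84), Cav1, the caveolin (0.83), Pamr1 (0.81) and the cytochrome P450 gene Cyp2f2 (0.81). The chymase relatives Cma2 and Mcpt-ps1 came at ranks 31 and 32 (0.76 each). Tpsb2, by probe A_55_P2127243 alone, came at 94 (0.68) and Hdc at 1120 (0.42). Kit gave -0.12.

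The next comparison asked what of this RNA was left once cells of TH-MYCN mice had grown as spheres. Limma called 83.2% of 15650 tested genes, 32.9% lower and 50.2% higher in primary spheres. The higher calls were 60.4% of the calls, and 48.3% with the median gene, which moved by 0.27, set to no difference. Of the 5 members that passed, 4 did not overlap and were lower, beside 23.3% of all tested genes, and 0 were higher without overlap, beside 34.6%. Those 4 passed through the ganglia where they were high, so nothing is read from the count. Tpsb2, by probe A_55_P2127243, was well above background in 8 of 8 primary cultures too. The median of the 5 was -2.58, or -1.73 with the undetected genes at their bounds. It was -0.17 with the normexp background, which adds an offset of 50 to each signal. The ganglia and the spheres lay on different slides, so a shift between slides and the sphere difference cannot be told apart. Slide entered an alternative fit only as a random block, which does not separate them. TH-MYCN ganglia serve in both this comparison and the former.

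Most other mast cell genes that could be measured were lower in primary spheres. Of 39 listed 27 passed the filter, 9 of them detected in no primary culture, so that they passed through the ganglia alone and could only be lower. Of the 27, 23 fell, 1 rose and 3 were not called, beside 32.9% of all tested genes called lower and 50.2% higher. Since the filter fixed the direction of those 9, nothing is read from the 23 beside these shares. The median of the 27 was -3.09, or -2.21 with undetected genes at their bounds. In the storage list Srgn was at least 59.3-fold lower and not detected in the spheres, Serpinb1a fell by 4.29 (SE 0.25) and Ctsc fell by 4.28 (SE 0.79). Serpinb1a was well above background in 1 of 8 primary cultures and Ctsc in 6, so the size for Serpinb1a is taken mostly against background. Ptgs1 was at least 232-fold lower, Alox5ap fell by 3.35 (SE 0.12) and Hpgds was at least 2.76-fold lower. Among receptors, Csf2rb, the shared beta chain of cytokine receptors, was at least 24.7-fold lower with its brightest probe, while its second probe stayed detected in 8 of 8 cultures at a difference of 0.31 (SE 0.13). Fcer1g fell by 5.23 (SE 0.16) and Il1rl1 was at least 5.12-fold lower. Lat rose by 0.7 (SE 0.16, limma adjusted p = 0.000691), named after its value was seen.

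Some genes of the list were still measured in the spheres. Kit ran from -0.92 to -0.5 in primary cultures, with all 8 well above background, and fell by 1.53 (SE 0.06, limma adjusted p = 9.07e-13). Gata2 fell by 3.03 (SE 0.18) and Mitf by 3.15 (SE 0.19), both well above background in 8 of 8 cultures, while Tal1 was detected in none and was at least 4.64-fold lower. Cma2 fell by 0.54 (SE 0.2, limma adjusted p = 0.0177). Its mean was -2.22 ± 0.44 (SD, n = 8) in the TH-MYCN SMG and -2.76 ± 0.39 (SD, n = 8) in the cultures. That call ended with quantile normalization (-0.4, adjusted p = 0.0515) and with the normexp background. Mcpt-ps1 was detected in no sphere. It was 1.18-fold lower against the lowest signal well above background, which is not a secure bound.

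Of 6 histamine handling genes 4 fell and 2 rose in primary spheres, beside 32.9% and 50.2% of all tested genes. Hnmt, which had ranged from -1.06 to 0.17 in the TH-MYCN SMG, was detected in 0 of 8 cultures and was at least 33.2-fold lower. Maob fell by 4.65 (SE 0.15) and Hrh3 fell by 3.36 (SE 0.21), and Slc29a4 fell by 0.48 (SE 0.11). Hrh4 rose by 1.17 (SE 0.3, limma adjusted p = 0.00165), and Hrh1 rose by 0.32 (SE 0.14, limma adjusted p = 0.0418) with its brightest probe, both named after their values were seen. A second Hrh1 probe differed by -2.99 (SE 0.2), and 9 of the 16 fits without one sample did not call Hrh1.

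Most markers of macrophages, fibroblasts and endothelium were at the same time lower in the spheres, where 32.9% of all tested genes were called lower and 50.2% higher. All 8 macrophage markers measured fell, with a mean level between -6.36 and -5.32 in primary cultures, as did all 7 fibroblast markers (-6.14 to -2.51) and 5 of 6 endothelium markers (-5.28 to -4.1), while the other rose. Lymphocyte and neutrophil markers were mixed: of 5 lymphocyte markers measured 2 fell and 2 rose, and of 4 neutrophil markers 1 fell and 2 rose. Sympathetic neuron markers had a mean level of 1.93 to 2.5, with 5 of 7 lower, and all 6 cell division markers rose. Their part in the mast cell values was not tested.

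Passaged against primary cultures gave fewer calls among all genes than the comparisons before. Limma called 11.6% of 14242 tested genes, 6.44% lower and 5.13% higher, and the higher share of the calls, 44.3%, went from 23.4% to 77.4% over the alternatives. Of the members Tpsb2 alone passed the filter, by probe A_55_P2127243, with a difference of 0.14 (SE 0.22) and overlapping groups, where 4.49% of all tested genes were lower and 4.65% higher without overlap. Of the other mast cell genes 15 passed, 0 fell (3 at an unadjusted limma p under 0.05) and 2 rose, with a median of 0.02. Of 5 histamine handling genes that passed 1 fell and 1 rose. Both lists stand beside the 6.44% and 5.13% of all tested genes. Ctsc, well above background in 6 primary and 0 passaged cultures, differed by -3.01, taken against background, and was not called. It was called lower with a slide block (limma adjusted p = 0.033) and a replicate block (-5.18, adjusted p = 0.000606). All 4 groups in one fit (adjusted p = 0.0119) and slide 3 alone (-5.12, adjusted p = 0.000218) called it lower too. Kit rose by 0.43 (SE 0.07, limma adjusted p = 0.0042), to -0.32 to -0.23 in the 4 passaged cultures. Gata2 rose by 1.83 (SE 0.45, limma adjusted p = 0.0244), a call lost without passaged replicate 2 or without passaged replicate 4 (adjusted p up to 0.0811) and within slide 3 (1.62, adjusted p = 0.153) and slide 4 (2.03, adjusted p = 0.0665). Among histamine handling genes Maob rose by 1.92 (SE 0.28, limma adjusted p = 0.00206) and Hrh3 fell by 0.56 (SE 0.14, limma adjusted p = 0.0228), which was lost without passaged replicate 2, 3 or 4 (adjusted p up to 0.0793), under a slide block (adjusted p = 0.323) and within slides 3 (-0.3) and 4 (-0.83).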

How the data were processed

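Samples were SMG of 8 wild-type and 8 TH-MYCN mice and 8 primary and 4 passaged sphere cultures, read on one-colour Agilent arrays. The processed spot intensity was deposited with the background already subtracted, per the file headers, and no normalization between arrays (Agilent Feature Extraction 11.5.1.1). Labelling used 1 of 2 RNA amounts, per the labels' protocols, and the amount of each sample is unknown here. A second deposited table has log2 values, and 99.86% of them equal the scanner log2 value used here minus one constant for each probe (tolerance 0.05), so scale and direction are known and the reference of the centring is not. Its column medians were -0.48 to -0.02 in wild-type SMG, -0.39 to -0.11 in TH-MYCN SMG, -0.08 to 0.07 in primary and 0.15 to 0.51 in passaged spheres.

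Levels are log2 of that signal less the 75th percentile of each array, without outlier-flagged spots. Spots of a probe and the 2 arrays of a culture were averaged; a passaged culture counted as well above background if either array was. Probes were named by accession through RefSeq (GRCm38.p6). A probe needed at least 4 samples of the comparison well above background, and the brightest stood for its gene. Groups were compared with limma 3.58.1 in R 4.3.3 (lmFit, eBayes, two-sided, Benjamini-Hochberg). "At least N-fold" sets the brighter group's mean against the higher of the dim probe's signal and the lowest signal well above background. Some probes were not well above background at levels over that lowest signal, so small bounds are not secure. In data simulated for the TH-MYCN minus wild-type SMG design, 50 of 15845 genes were changed at each size. Of these, 50% were recovered at a change of 0.5, 80% at 1 and 100% at 2 on the log2 scale. Far fewer genes were changed there than the 65.7% that limma called in the ganglia. The adjusted threshold was therefore stricter in the simulation, and its rates do not carry over to the calls reported. Members and lists were chosen with earlier results of these data known. Named genes were all members, every listed gene called in the ganglia, Kit, Fcer1a, Mrgprb2 and Hnmt, up to 3 genes a list by size of difference in the other comparisons, and the 10 most like the members. Alternatives were other background correction (normexp, on median spot signals), normalization, filters, probes, blocks and leaving out each sample.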

Additional observations from a re-analysis of the deposited data

Results flagged for a closer look

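Over the 7 probes and 4 groups, 28 groups of samples were examined for a value far from the rest, and 3 had one, where chance flags about 1 in 20 groups. TH-MYCN replicate 4 had a Tpsb2 level of -2.54 with probe A_55_P2089143, and the next TH-MYCN ganglion was at -3.87; the same animal was also the highest of its group for Mcpt4, Cma1, Cpa3 and Hdc. Primary culture 2 had an Hdc signal of -6.66, below the next at -5.41, and was itself not well above background. Wild-type replicate 2 had a Ms4a2 level of -5.19, above the next at -7.27, and was the sample in which Ms4a2 was well above background.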

How the results depend on the processing

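The median difference of the members in TH-MYCN minus wild-type SMG was -2.32. It was between -2.57 and -1.87 within slides and -2.49 to -2.17 without one ganglion, and moved to -1.42 with the normexp background. In primary spheres minus TH-MYCN SMG it was -2.58 (-2.68 to -2.4 without one sample), -0.17 with normexp, where Cma1 turned to 0.44, and -3.15 with genes well above background in all samples of a group. In passaged minus primary spheres it was 0.14, and 0.74 with no filter on dim probes. The offset of 50 compresses dim signals; the other causes were not tested.

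Other mast cell genes called higher numbered 2 with normexp in the ganglia (main 6), and 4 with normexp and 3 with no filter in primary spheres (main 1). In passaged minus primary spheres those called lower (main 0) were 1 with no filter, with the slide as a block or with all 4 groups in one fit, and 2 within slide 3. Those called higher (main 2) were 13 with no filter, and 1 within slide 3, within slide 4 or, at the lowest, without one sample (1 to 2). Histamine genes called lower in the ganglia were 3 with the median gene set not to differ (main 5). Those called higher in primary spheres (main 2) were 1 with the median gene set not to differ, the probe of the median difference, the slide as a block or all 4 groups in one fit, and 1 to 2 without one sample. In passaged spheres those called lower (main 1) were 0 with normexp, the slide as a block, all 4 groups in one fit and within slides 3 and 4, and 0 to 1 without one sample, and those called higher (main 1) were 2 with no filter. Relations with Mcpt4 that passed numbered 6, 0 without the 2 ganglia farthest from the median and 3 with normexp. With values centred within slides 7 were under the threshold, by a permutation not kept within slides, so that count is approximate.

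Turned in sign were, with normexp, Lyn in the ganglia (-0.06) and Ctsg (0.53), Hpgds (0.05) and Mcpt-ps1 (0.41) in primary spheres, and Hrh1 with the probe of the median difference (-2.99). The causes were not tested. Levels near background limit what can be said of the members in spheres, other than of Tpsb2 with one probe.

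Replicate numbers are shared between groups. Deviations of same-numbered samples correlated over 0.1 in 7 of 8 pairs of ganglia, in 1 of 8 pairs of TH-MYCN SMG and primary spheres and in 2 of 4 pairs of passaged and primary spheres, and 4 of 8, 1 of 8 and 3 of 4 samples correlated best with their own number. In the ganglia the mean r was 0.25 for the same number and -0.04 for other pairs. Same-numbered ganglia also shared a slide, and its part in this was not tested. The numbers were not taken as pairs in the main fits, and a replicate block was an alternative. With a replicate block the median differences of the members were -2.32, -2.58 and 0.31, and other mast cell genes called lower and higher were 15 and 5, 24 and 1, and 2 and 1; histamine genes called lower in passaged spheres were 0. The block called Stat5b (adjusted p = 0.0208) and Hrh4 (0.0165) lower in the ganglia, and ended the call of Gata2 in passaged spheres (1.66, adjusted p = 0.125).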
